A study of Homo sapiens with 29 samples.

Results

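HepG2, an established cell line derived from a human hepatic tumour, was cultured for 48 h with CCL, the labels' short name for the herb Cratoxylum cochinchinense Lour., or for the same time untreated. The comparison rests on 2 CCL arrays and 3 untreated arrays, chosen by treatment and time from 29 arrays of 11 groups, each holding the RNA of HepG2 cells with or without CCL at times from 0 to 48 h. Each array is numbered in the labels as belonging to a set. The CCL arrays are sets 1 and 2 and the untreated arrays are sets 1, 2 and 3. The labels give no dose, no vehicle for the untreated cells and no meaning of a set. The effect of the herb and that of a solvent therefore cannot be told apart. Nothing says that arrays of a group came from separate cultures, so p-values cover the spread between arrays alone, which may be technical.

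HepG2 cells keep many functions of hepatocytes, such as the secretion of albumin and the breakdown of amino acids, while they divide like tumour cells. In dividing cells, genes of DNA replication are transcribed mainly around the entry into S phase under E2F factors, and genes of mitosis mainly in G2, largely through the DREAM complex, MYB-related factors and FOXM1. Cells that meet stress can raise another set of genes, among them secreted cytokines such as GDF15, targets of the transcription factor ATF4 and the feedback phosphatases of the ERK kinase. The values below are log2 expression values after quantile normalization, each gene being read from 1 probe set. All 7 measured hepatocyte markers, ALB and AFP among them, lay above log2 5 on all 5 arrays. Their summed level, as log2 of the sum of linear values, was 13.39 and 13.53 on the CCL arrays and 13.61 to 13.70 on the untreated arrays. In 2 of the 7, AFP and TTR, both CCL arrays lay below all untreated arrays, and in none above. Of all tested genes 21.9% lay below and 19.0% above in this way, so this count of 7 markers says little. ALB had 11.74 and 11.91 on the CCL arrays, against 11.91, 11.97 and 12.01 on the untreated arrays, and was not called (difference -0.14 ± 0.15, adjusted p = 0.558).

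The CCL array of set 1 stood apart in its deposited values. Of 53617 probe sets it held 5419 distinct values, so that 93.8% of the probe sets shared their value with another, while CCL set 2 held 46440 (20.4% shared) and the untreated arrays of 48 h between 46468 and 46669 (19.7% to 20.4% shared). Over the series 6 arrays were tied in this way (5181 to 6868 distinct values), of which 4 were CCL and 2 untreated arrays, and 23 were not (46408 to 46882). CCL set 1 was the only one of the 5 arrays of 48 h among the 6. The part of this property in the results was not tested beyond 2 alternatives, a term for the 6 arrays and a fit without them.

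At 48 h, 331 of 6365 tested genes (5.20%) were called higher with CCL and 468 (7.35%) were called lower, which means a Benjamini-Hochberg adjusted p under 0.05 in limma's test. Both CCL arrays lay above all 3 untreated arrays in 1209 genes (19.0%) and below them in 1392 (21.9%), and 772 of the 799 called genes were among these. With a term for the 6 tied arrays 221 genes were called higher and 238 lower, of which 210 and 236 were also called before. Without the 6 arrays, where CCL set 2 alone stood for the treated cells and was assumed to vary like the arrays of other groups, 41 were called higher and 6 lower, of which 39 and 6 were also called before. Without CCL set 1 alone 11 genes were called higher and 1 lower, the 12 genes described first below, so every other call at 48 h reported here was lost without that array. Of the 104 called genes selected by the naming rule, 31 lost their call with the term and 85 without the 6 arrays. Those that kept it without the 6 arrays were 11 of the 12 genes, CD109 not being selected by the rule, and AQP7P3, DUSP5, HKDC1, IER3, KIF11, LURAP1L, MAPK13 and SFN. Without untreated set 1, 2 and 3, 34, 39 and 27 of the 104 lost their call. On the values as deposited, where the median difference over all genes was -0.26 in place of -0.05, 87 genes were called higher and 341 lower, so that 20.3% of the calls were higher, against 41.4% after quantile normalization. Fitting only the 5 arrays of 48 h called LAPTM5 higher and no gene lower by limma, with 564 genes higher and 651 lower at an unadjusted p under 0.05.

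**Figure D1:**
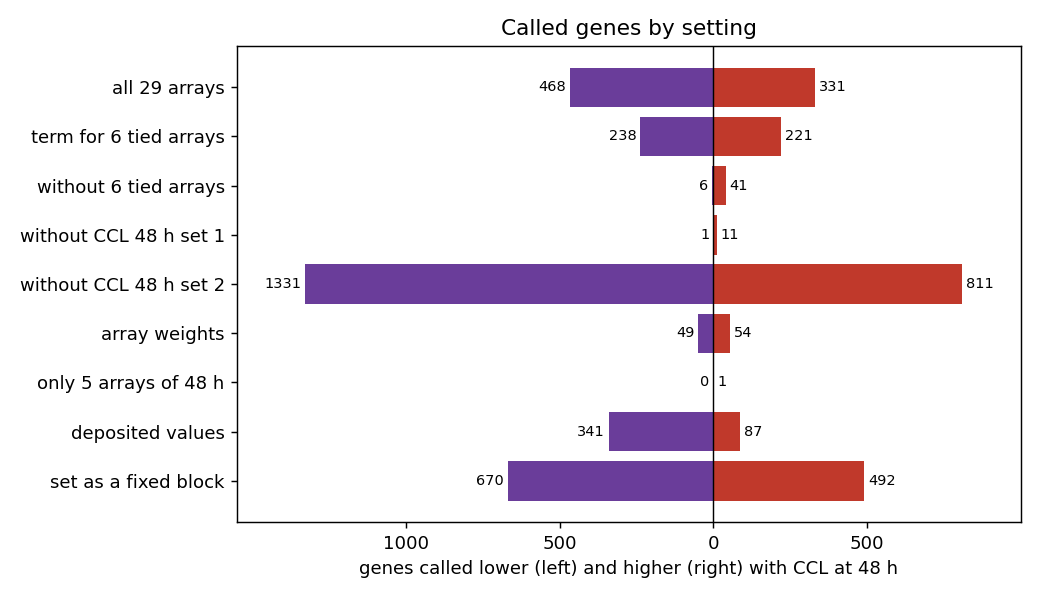
Number of genes called lower (bars to the left) and higher (bars to the right) with CCL at 48 h, adjusted p under 0.05, for all 29 arrays and for 8 other settings. The counts run from 1 gene higher and 0 lower when only the 5 arrays were fitted to 811 higher and 1331 lower without CCL set 2.

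The 2 CCL arrays differed in the size of their difference from untreated cells. Against the mean of the untreated arrays, CCL set 1 had an SD over genes of 0.87 and set 2 of 0.35 on the log2 scale. Set 1 was more than 1 above the untreated mean in 501 genes and more than 1 below it in 849, whereas set 2 was so in 89 and 24. Against the single untreated array of its own set, set 1 was more than 1 above in 455 genes and more than 1 below in 793. Set 2 was so in 119 and 33. Between 2 single untreated arrays, 12 to 104 genes differed by more than 1 in either direction. Of the 799 called genes, set 1 lay farther from the untreated mean in 755. Set 2 was on the same side in all 331 genes called higher and in 465 of the 468 called lower, a direction to which set 2 itself contributed. The differences of each set from its own untreated array, which share no array, had a Pearson's r of 0.57 and a Spearman's rho of 0.50 across 6365 genes, which are not independent of each other.

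**Figure D2:**
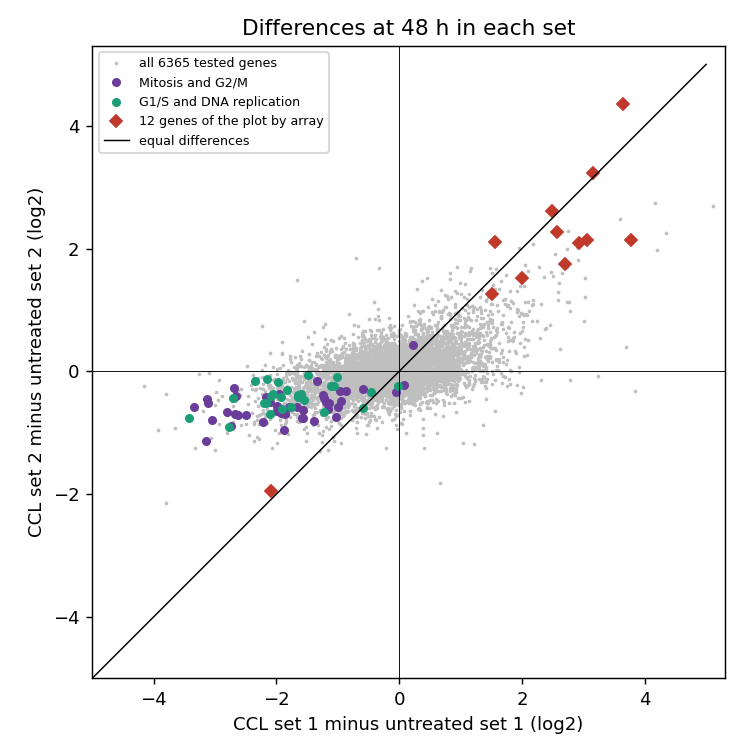
Each dot is a gene, with the log2 difference between CCL and untreated in set 1 on the horizontal axis and in set 2 on the vertical axis. Most members of the mitosis and replication lists lie far to the left and a little below 0, and the 12 genes of the plot by array lie near the line of equal differences or short of it.

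A group of 12 genes for secreted, membrane and metabolic proteins, among others, was called with all arrays, with the term, without the 6 arrays and without CCL set 1. The group was picked after the values were seen. It held 11 genes that rose, AXL, CD109, CD68, GDF15, HPD, IL11, LAPTM5, NAGS, PAQR5, TCP11L2 and UCA1, and DKK4, which fell. IL11, a cytokine gene related to interleukin-6, had 8.44 and 7.87 on the CCL arrays, against 5.28, 4.64 and 5.73 on the untreated arrays. The groups lay more than 2 log2 units apart. IL11 rose by 2.94 ± 0.36 (SE, 2 CCL and 3 untreated arrays, a fold change of 7.68, limma adjusted p = 3.61e-05).

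GDF15, a stress-induced cytokine of the transforming growth factor beta family, had 11.92 and 10.88 on the CCL arrays, against 9.21, 9.13 and 9.30 on the untreated arrays. The CCL arrays lay well above the untreated arrays, with set 1 the higher, and the rise was 2.19 ± 0.27 (limma adjusted p = 3.61e-05). Without the 6 tied arrays it was 1.66 ± 0.20 (limma adjusted p = 0.000973). The long non-coding RNA UCA1 had 8.43 and 8.83 on the CCL arrays, against 4.79, 4.47 and 6.26 on the untreated arrays. Here set 2 was the higher CCL array, and UCA1 rose by 3.46 ± 0.53 (limma adjusted p = 0.0004). AXL, encoding a receptor tyrosine kinase, had 8.11 and 6.92 on the CCL arrays, against 4.34, 4.79 and 5.06 on the untreated arrays, and rose by 2.79 ± 0.30 (limma adjusted p = 1.73e-05). CD109, encoding a surface protein that binds transforming growth factor beta, had 7.71 and 8.38 on the CCL arrays, against 6.16, 6.28 and 6.23 on the untreated arrays, with a difference of 1.83 ± 0.34.

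**Figure D3:**
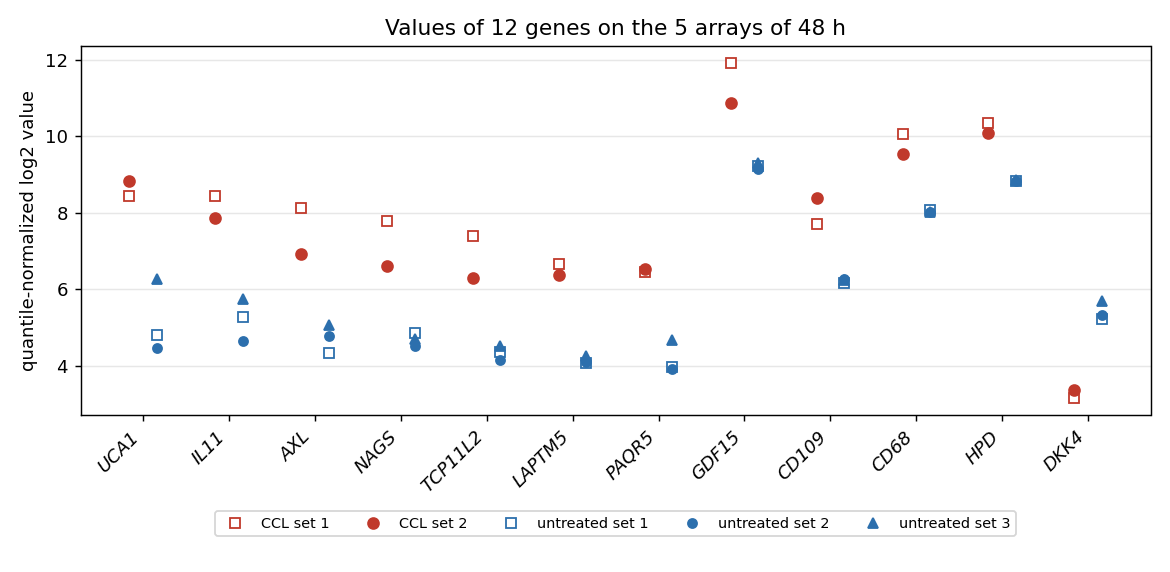
Quantile-normalized log2 values of 12 genes on the 5 arrays of 48 h, CCL arrays in red to the left and untreated arrays in blue to the right of each gene's position. In all 12 genes the CCL and untreated values do not overlap, and CCL set 2 alone is above the untreated arrays in 11 and below them in DKK4.

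Enzymes of amino acid handling were among the 12 genes. NAGS, encoding the synthase that makes the activator of the urea cycle's first enzyme, had 7.79 and 6.62 on the CCL arrays, against 4.87, 4.52 and 4.69 on the untreated arrays, and rose by 2.51 ± 0.32 (limma adjusted p = 4.7e-05). HPD, encoding an enzyme of tyrosine breakdown, had 10.35 and 10.08 on the CCL arrays, against 8.84, 8.82 and 8.84 on the untreated arrays. The untreated values of HPD were nearly the same, and it rose by 1.38 ± 0.16 (limma adjusted p = 2.89e-05). The other 9 tested members of the amino acid breakdown and urea cycle list did not pass the test, and the median of its 11 tested members was 0.31, against -0.05 over all tested genes. DKK4, encoding a secreted inhibitor of WNT signalling that is itself a WNT target, had 3.15 and 3.37 on the CCL arrays, against 5.23, 5.31 and 5.69 on the untreated arrays, and fell by 2.15 on the log2 scale (limma adjusted p = 0.000261). PAQR5, encoding a membrane progestin receptor, had 6.45 and 6.52 on the CCL arrays, against 3.97, 3.90 and 4.67 on the untreated arrays, and rose by 2.30 ± 0.35. TCP11L2 had 7.40 and 6.29 on the CCL arrays, against 4.34, 4.15 and 4.52 on the untreated arrays, and rose by 2.50 ± 0.34.

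LAPTM5 and CD68 encode lysosomal membrane proteins and are listed here as leukocyte markers. LAPTM5 had 6.65 and 6.37 on the CCL arrays, against 4.07, 4.10 and 4.26 on the untreated arrays, and rose by 2.36 ± 0.30 (limma adjusted p = 5.66e-05). CD68 had 10.06 and 9.54 on the CCL arrays, against 8.06, 8.02 and 8.02 on the untreated arrays, and rose by 1.77 ± 0.25 (limma adjusted p = 0.000185). Of the 11 leukocyte markers with a named probe set, 4 were above log2 5 on any array of 48 h. The other 2, LYZ and LCP1, had 10.85 and 10.70, and 5.60 and 4.01, on the CCL arrays, against 10.75, 10.65 and 10.90, and 3.48, 3.66 and 3.81, on the untreated arrays. Of the monocyte and macrophage markers that were too dim to be tested, CD14 had 4.94 and 3.33 on the CCL arrays, against 2.64, 3.16 and 2.85 on the untreated arrays, with both CCL arrays above the untreated ones and set 1 the farther, while CD163 and CSF1R lay between 1.95 and 3.19 on all 5 arrays. Over the 11 markers both CCL arrays lay above all untreated arrays in 6 and below them in 1. Of all tested genes 19.0% lay above and 21.9% below in this way, while only 3 of the 11 markers were tested. The summed level of the list, as log2 of the sum of linear values, was 11.63 and 11.34 on the CCL arrays and 10.94 to 11.16 on the untreated arrays. The part of other cell types in these values was not tested.

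Among the endothelial markers ENG, a co-receptor of transforming growth factor beta, and ESAM, an adhesion molecule, rose by 2.04 ± 0.35 and 1.75 ± 0.34, with no call of either without the 6 tied arrays. TIE1, a receptor of endothelial cells and too dim to be tested, had 3.56 and 3.68 on the CCL arrays, against 2.50, 2.85 and 2.79 on the untreated arrays, so that both CCL arrays lay above the untreated ones. The defining genes PECAM1, VWF and KDR stayed at or below 3.30 on all 5 arrays. Of the 10 named endothelial markers 2 were above log2 5, and in 3, ENG, ESAM and TIE1, both CCL arrays lay above all untreated arrays. The same held in 19.0% of all tested genes. The list's summed level was 8.61 and 7.64 on the CCL arrays and 6.80 to 6.98 on the untreated arrays. SFN, encoding an epithelial 14-3-3 protein, had 8.21 and 8.21 on the CCL arrays, against 6.70, 6.60 and 6.98 on the untreated arrays, and rose by 1.45 ± 0.31. It was the only squamous marker of 10 named above log2 5, and the summed level of that list was 8.48 and 8.46 on the CCL arrays and 7.34 to 7.58 on the untreated arrays. None of the 9 tested cholangiocyte and progenitor markers and neither of the 2 tested fibroblast and stellate markers was called. With the set number as a fixed block, 2 of the 9 were called higher, KRT19 (0.81 ± 0.26, limma adjusted p = 0.0348, against 0.94 and 0.0531 without the block) and SPP1 (0.65 ± 0.22, limma adjusted p = 0.0403, against 0.20 and 0.855). The summed levels were 12.42 to 12.57 on the CCL arrays and 12.31 to 12.66 on the untreated arrays for the cholangiocyte and progenitor list. For the fibroblast and stellate list they were 6.26 to 6.98 on the CCL arrays and 5.86 to 6.55 on the untreated arrays.

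Of 6 tested genes for interleukin-6 family members and other cytokines, 4 rose (66.7%, against 5.20% of all tested genes) and none fell. The list had 11 named genes, and a gene was tested if it exceeded log2 5 on 2 or more arrays. Members that are high with CCL pass this limit more easily, which favours a high share of rises. At 48 h LIF exceeded it on the CCL arrays alone. The list median was 1.69 for both arrays together, 2.14 for set 1 and 1.13 for set 2, against -0.05 over all genes. LIF, a cytokine that signals through the same receptor subunit as IL11, had 7.16 and 5.58 on the CCL arrays, against 4.24, 3.77 and 4.64 on the untreated arrays, and rose by 2.15 ± 0.43 (limma adjusted p = 0.00377), against 1.37 and no call without the 6 tied arrays (limma adjusted p = 0.0947). CSF1, the macrophage growth factor, rose by 1.24 ± 0.35. Without the 6 tied arrays 2 of the list were called, IL11 and GDF15. The growth factor genes EREG, a ligand of the EGF receptor, and PDGFA rose by 1.89 ± 0.46 and 1.43 ± 0.44. For PDGFA the CCL values were 7.39 and 5.36, so that set 1 carried most of the difference from 5.10, 4.81 and 4.92 on the untreated arrays.

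Genes of ERK feedback and output were called higher in 6 of 13 (46.2%) and lower in 1, HMGA2 (7.69%). Of all tested genes 5.20% were called higher and 7.35% lower. DUSP5, encoding a nuclear phosphatase of ERK, had 8.76 and 6.02 on the CCL arrays, against 3.66, 3.32 and 4.73 on the untreated arrays, and had the largest rise of any called gene, 3.49 ± 0.52 (limma adjusted p = 0.00033). A dimmer probe set of DUSP5 gave 1.65. DUSP8 and DUSP1, which encode phosphatases of MAP kinases, rose by 1.27 ± 0.24 and 1.11 ± 0.34. The median of this list was 0.98 for set 1 and 0.13 for set 2. Of 16 immediate early genes 4 rose (25%) and none fell, FOSL1, IER3, JUND and KLF6, with medians of 1.08 for set 1 and 0.19 for set 2. With the term for tied arrays 3 members of the ERK list and 4 immediate early genes were called higher, and without the 6 arrays 2 and 1, while the list medians were then 0.13 and 0.19. FOSL1, a partner of JUN in AP-1, had 8.19 and 6.22 on the CCL arrays, against 5.18, 5.40 and 6.38 on the untreated arrays, and CCL set 2 lay inside the untreated range.

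In the MAP kinase cascade MAP2K6, encoding an activator of p38, had 3.60 and 5.32 on the CCL arrays, against 6.61, 6.61 and 6.58 on the untreated arrays, and fell by 2.14 on the log2 scale (limma adjusted p = 0.00975). MAPK13, encoding a p38 isoform, had 7.67 and 7.58 on the CCL arrays, against 6.71, 6.62 and 6.57 on the untreated arrays, and rose by 0.99 ± 0.18. It was also called without the 6 tied arrays, and MAP2K6 was not (difference -1.28, limma adjusted p = 0.389). MAP2K1 and MAPK3 of the ERK branch rose by 0.48 ± 0.16 and 0.70 ± 0.21. With the term for tied arrays neither was called (limma adjusted p = 0.102 and 0.0698). MAP2K1 also lost its call on leaving out any 1 array of 48 h.

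Lists of amino acid supply had similar medians on both CCL arrays. Of 14 tested targets of ATF4 and CHOP, 5 rose (35.7%, against 5.20% of all tested genes) and none fell, with medians of 0.55 for set 1 and 0.47 for set 2. Of 17 tested aminoacyl-tRNA synthetases, which charge transfer RNAs with amino acids, 5 rose (29.4%) and none fell, with medians of 0.37 and 0.34. ASNS, the asparagine synthetase, had 7.69 and 7.11 on the CCL arrays, against 5.87, 6.30 and 6.46 on the untreated arrays, and rose by 1.19 ± 0.30 (limma adjusted p = 0.0125). CTH, of cysteine synthesis, rose by 1.41 ± 0.43, STC2, a secreted glycoprotein, by 0.97 ± 0.24 and SESN2, an inhibitor of mTORC1, by 0.92 ± 0.21. SARS1, the seryl-tRNA synthetase, had 7.57 and 7.34 on the CCL arrays, against 6.57, 6.74 and 6.84 on the untreated arrays, and rose by 0.74 ± 0.20. Without the 6 tied arrays no member of either list was called by limma, while the list medians were 0.47 and 0.34. Of 8 tested chaperones of the endoplasmic reticulum 2 fell (25%, against 7.35% of all tested genes), CALR (-0.62 ± 0.15) and SDF2L1 (-0.74 ± 0.21), and none rose.

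**Figure D4:**
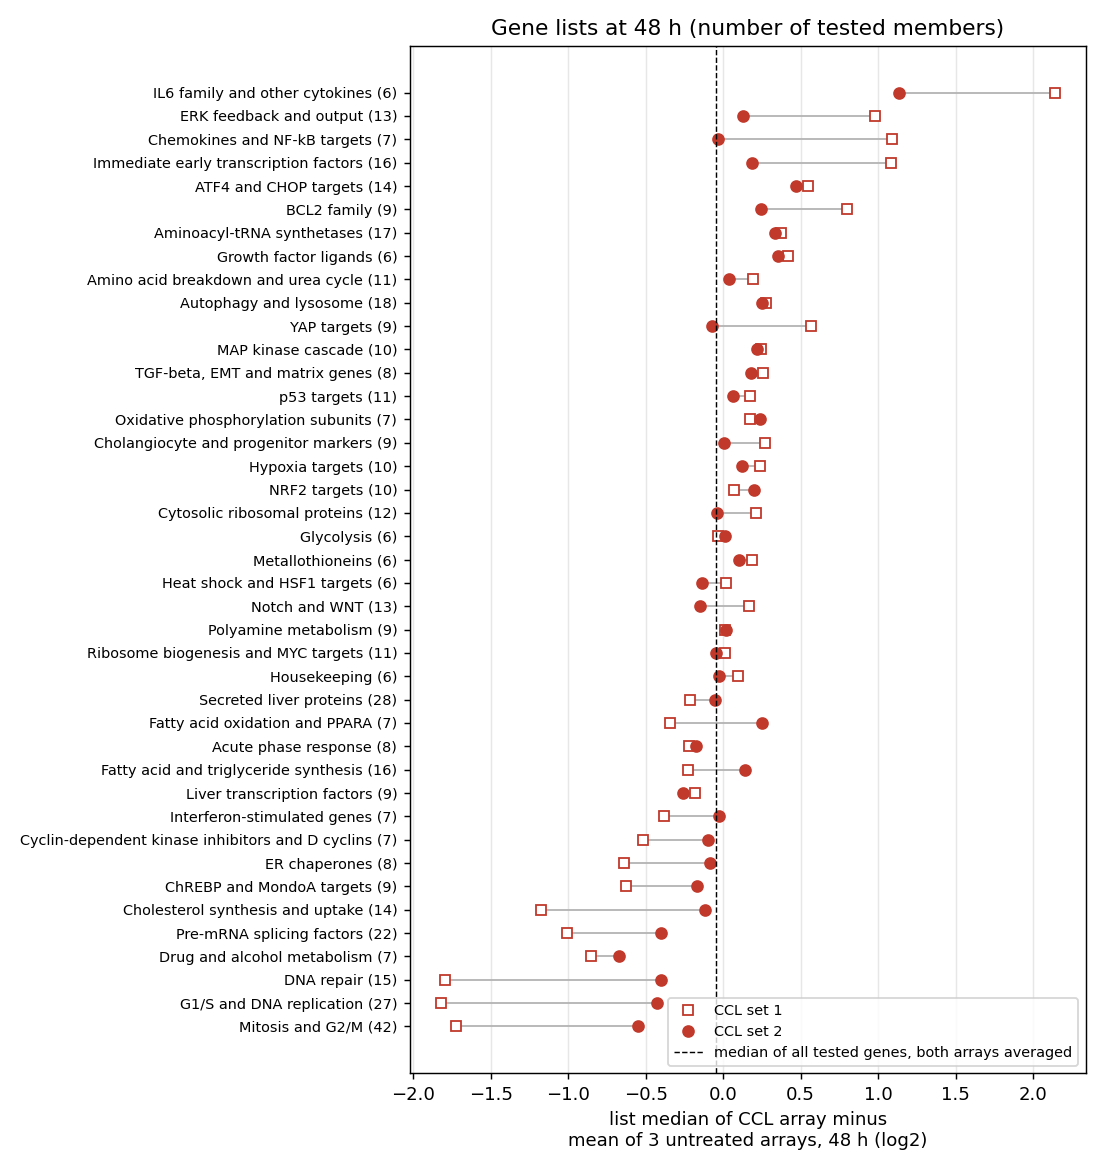
Median over each gene list of the log2 difference from the mean of the untreated arrays at 48 h, for CCL set 1 (open squares) and CCL set 2 (filled circles), for lists with at least 6 tested members (numbers in parentheses). The dashed line is the median of all tested genes, -0.05. Mitosis, replication and DNA repair lie lowest in set 1, drug and alcohol metabolism lies lowest in set 2, and the cytokine list lies highest on both arrays.

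Genes of cell division had the largest shares of called lower members among the lists with 6 or more tested genes, where 7.35% of all tested genes were called lower. Of 42 tested genes of mitosis and G2, 29 fell and none rose. The list median was -1.16 for both arrays, -1.73 for set 1 and -0.55 for set 2, and 41 of the 42 lay below the untreated mean on both arrays. The exception was CDC25B, with 7.46 and 7.50 on the CCL arrays, against 7.23, 7.08 and 6.86 on the untreated arrays. Of 27 tested genes of the G1/S transition and DNA replication 18 fell and none rose (median -1.09), and of 15 DNA repair genes 10 fell and none rose (median -1.03). With the term for tied arrays 21, 13 and 8 members of these lists were called lower. Without the 6 arrays 2, 0 and 0 were called lower by limma, while the medians were -0.55, -0.43 and -0.40, against -0.01 over all genes. In bulk RNA, fewer cells in a phase and less RNA per cell cannot be told apart.

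KIF11, the kinesin that separates spindle poles, had 5.15 and 7.35 on the CCL arrays, against 8.29, 8.48 and 8.45 on the untreated arrays. Set 1 was more than 2 log2 units under set 2, and set 2 was below all untreated arrays. KIF11 fell by 2.16 on the log2 scale (SE 0.44, limma adjusted p = 0.00393), against a difference of -1.06 without the 6 tied arrays (limma adjusted p = 0.0166). NUSAP1, a microtubule-binding protein of the spindle, had 6.58 and 7.37 on the CCL arrays, against 8.47, 8.33 and 8.16 on the untreated arrays, and it was the other member of the mitosis list called without those arrays. MKI67, the proliferation antigen Ki-67, had 6.21 and 8.61 on the CCL arrays, against 9.34, 9.07 and 9.16 on the untreated arrays, and fell by 1.78 (limma adjusted p = 0.00495), against -0.58 and no call without the tied arrays. KIF20B, a kinesin of cytokinesis, had 4.26 and 7.24 on the CCL arrays, against 7.36, 7.75 and 7.74 on the untreated arrays, so that set 2 lay just below the untreated arrays. NDC80, of the kinetochore, and CENPI, of the centromere, fell by 1.90 and 2.06.

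GINS1, a subunit of the replicative helicase, had 3.96 and 6.47 on the CCL arrays, against 7.37, 7.23 and 7.30 on the untreated arrays, and fell by 2.09 (limma adjusted p = 0.00415). CDC6, which helps to load the helicase core at origins, had 4.71 and 6.97 on the CCL arrays, against 7.42, 7.40 and 7.42 on the untreated arrays, and fell by 1.58. TICRR, needed to start replication, had 3.64 and 6.49 on the CCL arrays, against 7.56, 7.44 and 7.34 on the untreated arrays, and fell by 2.39 (limma adjusted p = 0.00426). CLSPN and EXO1, of the replication checkpoint and of DNA end resection, fell by 1.78 and 1.81. A dimmer probe set of CLSPN gave a difference of 0.06. CCND1, the D-type cyclin, had 8.09 and 7.99 on the CCL arrays, against 8.29, 8.12 and 8.25 on the untreated arrays, and was not called (limma adjusted p = 0.482).

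Letters known from the promoters of cell cycle genes were searched in the promoters given for members of the mitosis and replication lists. They were found in some and not in others, as counted after the sequences. The windows reach from 250 bases before to 50 after the start site given by RefSeq for GRCh38.p14, and the 6 shown were picked after matches had been seen. In the first 4, of mitotic genes, capitals mark TTTGAA, the CHR (cell cycle genes homology region), and CCAAT, the CCAAT box, on either strand, which run into each other at 1 place in MKI67. In the last 2, of replication genes, capitals mark TTTGGCGC, a form of the E2F site. The windows are chr10:92592880-92593179, plus strand for KIF11, chr15:41332631-41332930, plus strand for NUSAP1, chr10:128126374-128126673, minus strand for MKI67, chr10:89701340-89701639, plus strand for KIF20B, chr20:25407423-25407722, plus strand for GINS1 and chr17:40287629-40287928, plus strand for CDC6.
KIF11: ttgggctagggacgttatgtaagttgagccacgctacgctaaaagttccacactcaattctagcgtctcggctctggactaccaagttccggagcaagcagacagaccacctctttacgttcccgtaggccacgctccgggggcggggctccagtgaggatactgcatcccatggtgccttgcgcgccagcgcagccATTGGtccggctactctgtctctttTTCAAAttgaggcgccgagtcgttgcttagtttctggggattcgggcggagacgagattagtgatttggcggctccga
NUSAP1: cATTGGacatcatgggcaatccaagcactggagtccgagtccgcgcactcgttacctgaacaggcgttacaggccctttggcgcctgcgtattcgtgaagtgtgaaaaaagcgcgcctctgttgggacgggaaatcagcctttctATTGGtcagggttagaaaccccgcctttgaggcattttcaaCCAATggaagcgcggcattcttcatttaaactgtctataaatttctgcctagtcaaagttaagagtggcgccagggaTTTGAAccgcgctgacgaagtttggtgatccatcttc
MKI67: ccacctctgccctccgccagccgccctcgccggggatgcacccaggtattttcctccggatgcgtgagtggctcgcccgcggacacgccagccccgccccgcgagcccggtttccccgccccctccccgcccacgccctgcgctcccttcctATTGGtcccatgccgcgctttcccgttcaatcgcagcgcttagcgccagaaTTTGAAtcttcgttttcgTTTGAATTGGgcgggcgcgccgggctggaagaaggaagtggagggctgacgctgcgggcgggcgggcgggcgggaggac
KIF20B: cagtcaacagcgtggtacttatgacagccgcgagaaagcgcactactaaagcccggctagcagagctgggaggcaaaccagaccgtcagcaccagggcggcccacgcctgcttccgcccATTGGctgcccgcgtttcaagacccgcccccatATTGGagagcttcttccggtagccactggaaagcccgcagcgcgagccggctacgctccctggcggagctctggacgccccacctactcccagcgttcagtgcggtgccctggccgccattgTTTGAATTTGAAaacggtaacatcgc
GINS1: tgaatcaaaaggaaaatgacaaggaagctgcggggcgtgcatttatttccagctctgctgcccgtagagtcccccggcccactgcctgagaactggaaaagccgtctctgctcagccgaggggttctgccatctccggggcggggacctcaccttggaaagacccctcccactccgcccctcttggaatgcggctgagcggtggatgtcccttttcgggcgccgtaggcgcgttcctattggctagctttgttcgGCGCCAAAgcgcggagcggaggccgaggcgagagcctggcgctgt
CDC6: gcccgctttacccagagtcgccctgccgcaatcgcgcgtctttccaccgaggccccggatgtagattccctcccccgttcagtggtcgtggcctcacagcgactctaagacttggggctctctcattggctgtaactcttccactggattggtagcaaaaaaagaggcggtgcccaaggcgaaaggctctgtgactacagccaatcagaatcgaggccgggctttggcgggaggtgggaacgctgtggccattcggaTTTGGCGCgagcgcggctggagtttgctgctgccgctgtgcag

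The CHR was in 16 of the 24 promoters given for the 29 mitotic genes called lower (66.7%), against 10.1% of the 5140 tested genes with a promoter and 15.4% of 27305 promoters. CCAAT was in 19 of the 24 (79.2%), against 37.3% and 35.7%. Among 11 members of the mitosis list that were not called, 7 held the CHR and 8 a CCAAT box, which is 63.6% and 72.7%. The E2F letters were in 5 of 14 promoters of replication genes called lower (35.7%), against 1.13% of tested genes and 0.66% of all promoters. Among 8 members of the replication list that were not called, 2 held them (25%). Outside the lists, 308 genes called lower had a promoter, and 65 of them (21.1%) held the CHR. For the ATF4 list TGATGNAAT, for the cholesterol list TCACNCCAC and for the immediate early list TGANTCA, searched on both strands, had no match in the 4, 3 and 2 promoters of called members, against 0.447%, 1.17% and 3.75% of tested genes. Over all genes called higher that had a promoter, lists or not, 20 of 255 (7.84%) held TGANTCA, against 3.64% of the 4505 genes not called and 7.76% of all promoters. These matches of letters are descriptions of the sequence, and binding was not measured.

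Factors of pre-mRNA splicing fell as well, 12 of 22 tested (54.5%, against 7.35% of all tested genes) with none higher. Their medians were -1.01 for set 1 and -0.40 for set 2. SRSF1, a serine and arginine rich splicing factor, had 7.54 and 8.95 on the CCL arrays, against 9.51, 9.64 and 9.88 on the untreated arrays, and fell by 1.43 (limma adjusted p = 0.00213). HNRNPC had 5.31 and 7.26 on the CCL arrays, against 7.59, 7.97 and 7.42 on the untreated arrays, with set 2 just below the untreated arrays, and fell by 1.38. No splicing factor was called without the 6 tied arrays by limma, and the median was then -0.40. Of 12 cytosolic ribosomal proteins and 7 subunits of oxidative phosphorylation, none was called. RPS15 had 10.64 and 10.08 on the CCL arrays, against 10.26, 10.41 and 10.29 on the untreated arrays.

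In metabolism, 4 of 14 cholesterol genes fell (28.6%, against 7.35% of all tested genes) and none rose, with a median of -1.18 for set 1 and -0.12 for set 2. SQLE, the squalene epoxidase, had 7.30 and 8.41 on the CCL arrays, against 8.74, 8.80 and 8.81 on the untreated arrays, and fell by 0.93. Without the 6 tied arrays none was called. TXNIP, a thioredoxin-binding protein that answers to glucose, had 2.91 and 4.99 on the CCL arrays, against 6.71, 7.13 and 5.81 on the untreated arrays, and fell by 2.60 with the wide SE of 0.78 (limma adjusted p = 0.0325). With the term for tied arrays TXNIP was not called (-2.41, limma adjusted p = 0.071), nor without the 6 arrays (-1.56, limma adjusted p = 0.581). A dimmer probe set of TXNIP gave 0.07. IGFBP1, a liver-secreted binding protein of insulin-like growth factors, had 11.05 and 9.99 on the CCL arrays, against 7.46, 7.51 and 8.21 on the untreated arrays, and rose by 2.79 ± 0.48 (limma adjusted p = 0.00107). VNN1, a pantetheinase, had 7.28 and 5.84 on the CCL arrays, against 3.12, 3.10 and 4.4 on the untreated arrays, and rose by 3.02 ± 0.52. Without the 6 tied arrays neither was called, with differences of 2.26 for IGFBP1 (limma adjusted p = 0.0807) and 2.30 for VNN1 (limma adjusted p = 0.0727). HKDC1, related to the hexokinases, had 8.33 and 7.58 on the CCL arrays, against 5.44, 5.55 and 6.38 on the untreated arrays, rose by 2.17 ± 0.31 and was also called without the tied arrays. The 7 tested genes of drug and alcohol metabolism had medians of -0.86 for set 1 and -0.68 for set 2. Of these 1 fell (14.3%), DHRS2 (-1.53 ± 0.34, limma adjusted p = 0.0067), with a difference of -0.78 without the tied arrays.

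Of 28 tested genes of secreted liver proteins 1 rose and 2 fell (3.57% and 7.14%), near the 5.20% and 7.35% of all tested genes. The list median was -0.05, the same as over all genes. TTR, the thyroxine carrier, had 8.91 and 8.72 on the CCL arrays, against 9.86, 9.90 and 9.74 on the untreated arrays, and fell by 1.02. FGA, the fibrinogen alpha chain, had 10.11 and 9.72 on the CCL arrays, against 10.64, 10.74 and 10.94 on the untreated arrays, and fell by 0.87. For both, set 2 lay farther from the untreated arrays than set 1. The call of FGA was lost with the term for tied arrays (limma adjusted p = 0.098) and on leaving out any 1 array of 48 h. ITIH3 rose by 0.95 ± 0.24. AFP, alpha-fetoprotein, was not called (-0.24 ± 0.16). ONECUT1, a liver transcription factor, had 3.96 and 5.32 on the CCL arrays, against 6.22, 6.01 and 5.8 on the untreated arrays. It was the only called member of 9 liver transcription factors, or 11.1% (difference -1.37 ± 0.44).

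The lists of stress responses named here had few tested members, so that a small count of called genes says little. Of all tested genes 5.20% were called higher and 7.35% lower. HMOX1, the heme oxygenase gene, had 5.68 and 6.38 on the CCL arrays, against 6.64, 6.47 and 6.67 on the untreated arrays, and was not called (-0.56 ± 0.93). Both CCL arrays lay below the untreated ones. The SE of HMOX1 is pooled over all groups, and fitting only the 5 arrays of 48 h gave 0.25, also without a call. OSGIN1 (1.13 ± 0.27) was the only called member of 10 NRF2 targets (10%), and MT2A (0.96 ± 0.28) of 6 metallothionein genes (16.7%). Of 6 heat shock genes and 7 chemokine and NF-kB genes none was called by limma. CCL20, a chemokine gene whose symbol is unrelated to the herb, had 9.99 and 8.23 on the CCL arrays, against 7.97, 8.47 and 8.35 on the untreated arrays, so that set 2 lay among the untreated arrays. Of 11 p53 targets 2 rose (18.2%), PLK3, a kinase, and BBC3, the BH3-only protein PUMA, by 1.60 ± 0.30 and 0.86 ± 0.28. BBC3 had 6.26 and 5.19 on the CCL arrays, against 5.21, 4.90 and 4.48 on the untreated arrays, so that CCL set 2 lay inside the untreated range. With the term for tied arrays BBC3 was not called (limma adjusted p = 0.0563). MCL1, of the BCL2 family, rose by 0.63 ± 0.20. None of these 3 was called without the 6 tied arrays.

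Among cell surface and signalling genes, JAG1, a Notch ligand, had 10.39 and 9.71 on the CCL arrays, against 8.59, 8.41 and 9.0 on the untreated arrays, and rose by 1.39 ± 0.25. LGR5, a WNT target and R-spondin receptor, had 8.51 and 8.74 on the CCL arrays, against 9.26, 9.38 and 9.26 on the untreated arrays, and fell by 0.68. Of 13 Notch and WNT genes 1 rose, JAG1, and 3 fell, with DKK4 and LGR5 joined by NOTCH2. These shares were 7.69% and 23.1%, against 5.20% and 7.35% of all tested genes. ANKRD1, counted among YAP targets, had 10.26 and 8.47 on the CCL arrays, against 5.92, 6.23 and 8.57 on the untreated arrays, where untreated set 3 lay above CCL set 2, and rose by 2.46 ± 0.81 (limma adjusted p = 0.0479). SNAI2, a repressor of epithelial genes, rose by 1.38 ± 0.31, and SAT1, the enzyme that acetylates spermidine and spermine, had 8.96 and 8.63 on the CCL arrays, against 7.76, 7.66 and 7.79 on the untreated arrays, with a rise of 1.06 ± 0.19.

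The genes with the widest gap between the CCL arrays were MIR520E, RGCC, TYW1, ZNF440, MIR570 and PURPL. TYW1, of transfer RNA modification, had 7.38 and 4.0 on the CCL arrays, against 4.14, 4.07 and 4.28 on the untreated arrays, so that only CCL set 1 stood apart, and it was not called. RGCC, a regulator of the cell cycle, had 6.42 and 2.97 on the CCL arrays, against 2.73, 2.57 and 2.85 on the untreated arrays, and was called higher with all arrays (limma adjusted p = 0.0283) but not without the tied ones (difference 0.25). ZNF440, a zinc finger gene, had 2.67 and 5.82 on the CCL arrays, against 5.76, 5.85 and 6.11 on the untreated arrays. MIR570, a microRNA gene, had 2.63 and 6.29 on the CCL arrays, against 6.79, 6.52 and 6.76 on the untreated arrays. In all of these set 2 lay within 0.5 of an untreated array.

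To set 48 h against earlier times, the difference at 48 h was compared with the mean of the differences at 6, 12, 18 and 24 h, which share no arrays with it. By limma no gene passed this test in either direction (0 of 6365, 0%), while 231 had a positive and 461 a negative difference at an unadjusted p under 0.05. Other settings with all arrays of 48 h called 0 to 4 genes in a direction, and leaving out CCL set 2 called 302 and 695. Genes called higher at 48 h lay above 0 in 91.8%, 96.7%, 90.3% and 96.1% at 6, 12, 18 and 24 h, against 49.6% to 50.7% of all tested genes. Genes called lower at 48 h lay below 0 in 90.4%, 95.7%, 83.5% and 87.8%. Of the 331 higher genes 32, 87, 106 and 155 were themselves called higher at 6, 12, 18 and 24 h (9.67%, 26.3%, 32.0% and 46.8%), against 0.927%, 1.82%, 3.49% and 4.62% of all tested genes. Of the 468 lower genes 13, 18, 36 and 59 were called lower (2.78%, 3.85%, 7.69% and 12.6%). Of all tested genes 0.424%, 0.471%, 1.85% and 2.59% were so. These calls are not independent, as all groups shared 1 spread per gene in the fit. At 24 h CCL set 1 was also tied. It differed from CCL set 2 by a median of 0.30 in genes called higher at 48 h and -0.51 in those called lower. For untreated 24 h set 1, also tied, the medians from its untied arrays were -0.03 and -0.10. The part of tied arrays in this agreement was not tested.

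By unadjusted p, the genes nearest to the threshold of this test were HPD and LAPTM5. HPD differed from untreated cells by 0.05, 0.32, 0.60 and 0.53 at 6, 12, 18 and 24 h, and by 1.38 at 48 h (limma adjusted p of the change with time 0.05004). LAPTM5 differed by 0.34, 0.28, 1.01 and 1.1, and by 2.36 at 48 h (limma adjusted p 0.0844). DKK4 differed by 0.75, 0.04, -1.45 and -1.24, and by -2.15 at 48 h. PEG10, an imprinted gene derived from a retrotransposon, differed by 0.03, -0.13, -0.55 and -0.87, and by -1.67 at 48 h. For DKK4 and PEG10 the limma adjusted p of the change with time was 0.0844. SPICE1 and AGXT had the same adjusted p and turned their sign. They differed by -0.85 and 0.89 at 48 h, against 0.45 and -0.20 in the mean of the earlier times. PEG10, SPICE1 and AGXT were named after their values had been seen, as were CD109, NUSAP1 and CDC25B above. IL11 had its largest difference at 24 h, 4.24, and GDF15 lay between 1.55 and 2.38 before 48 h.

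**Figure D5:**
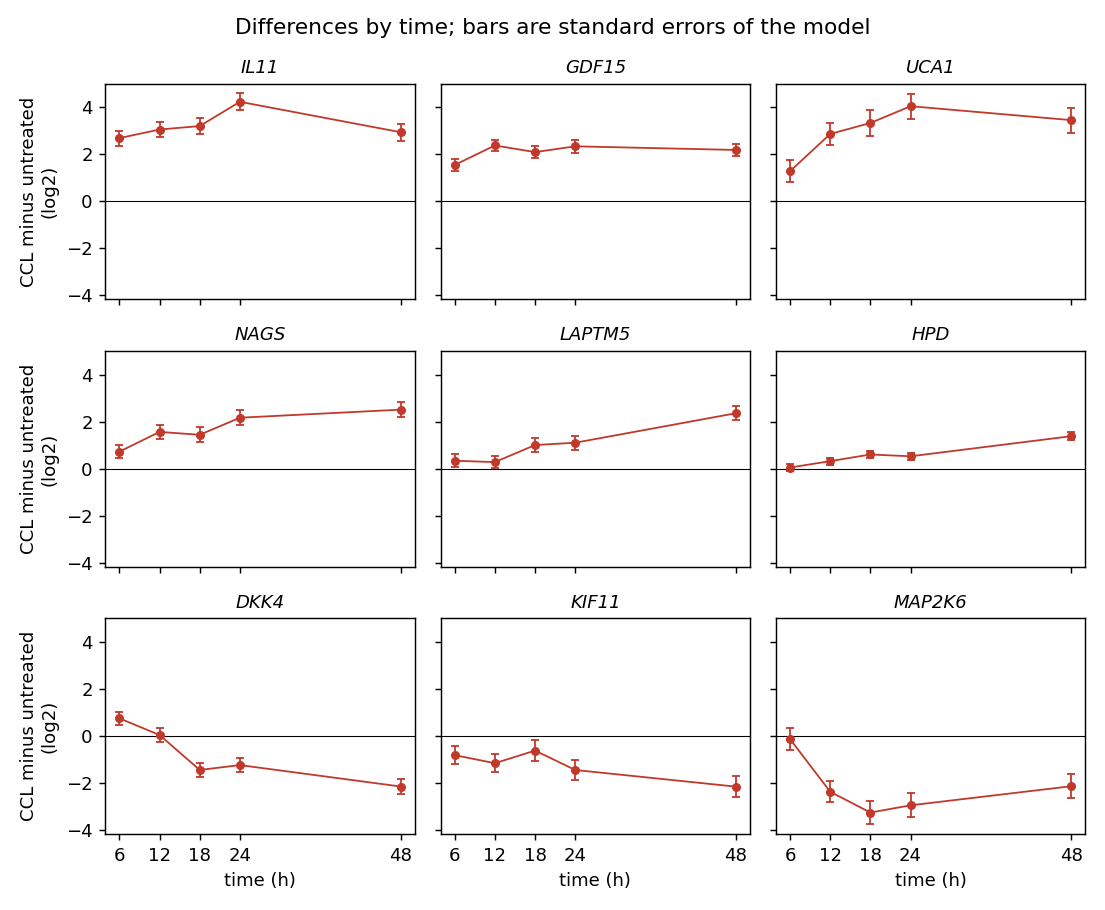
Log2 difference between CCL and untreated cells at 6, 12, 18, 24 and 48 h for 9 genes, with bars for the standard error of the model. IL11, GDF15 and UCA1 are already more than 1 above 0 at 6 h, UCA1 without a call at that time. NAGS, LAPTM5 and HPD have their largest value at 48 h, and DKK4 and KIF11 their lowest.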

How the data were processed

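Total RNA of HepG2 cells was measured on 29 arrays (HuGene 2.0 ST). The authors deposited log2 values, for which the submitters' processing notes name RMA and Affymetrix Expression Console 1.1. Which arrays were normalized together is not given in the sources used here, and array medians ran from 2.29 to 3.39. All 29 arrays were quantile-normalized over 53617 probe sets. The array's probe table named 16098 of them with 1 gene each, and for the 779 genes with several, the probe set with the highest mean was kept. Of 14884 genes, 6365 exceeded log2 5 on 2 or more arrays and were tested with limma 3.58.1 in R 4.3.3, with 1 mean per group over 11 groups, two-sided p-values and Benjamini-Hochberg adjustment. A gene dim in untreated cells could pass this limit through CCL arrays alone. The script was tested on simulated data. For arrays, their number limits the precision, and the depth behind a value is unknown.

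Named genes are the 15 highest and 15 lowest called changes with separate groups, up to 4 called members per list and direction (2 tested ones where none was called), the 6 widest gaps between the CCL arrays and 12 genes given whatever they showed. Lists, of which 48 held 1006 genes (614 named on the array, 481 tested), and members were chosen with earlier results of these data known. The alternatives on tied arrays (under 10000 distinct values), the group of 12 genes, the promoters and genes said to be so were chosen after values were seen. No set test was made. Promoters and gene annotation came from RefSeq (GRCh38.p14), matched by gene ID.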

Additional observations from a re-analysis of the deposited data

Results flagged for a closer look

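Among the genes named here, CARS1, DKK4 and MAPK3 separated the groups in opposite directions at 2 times. At 48 h the CCL arrays lay all above or all below the untreated ones, and at an earlier time the reverse held. The difference was 0.76 at 48 h and -0.18 at 6 h for CARS1, -2.15 at 48 h and 0.75 at 6 h for DKK4, and 0.70 at 48 h and -0.39 at 18 h for MAPK3. The difference between those times was not tested for these pairs of times. The share of all tested genes that reversed in this way is not given. At 48 h alone, both CCL arrays lay above all untreated ones in 19.0% of tested genes and below in 21.9%. At 18 h the tied arrays were CCL set 3 and untreated set 1. In MAPK3 they differed from the untied arrays of their groups by -0.61 and 0.19. At 6 h CCL set 1 was tied, with -0.10 for CARS1 and 0.10 for DKK4. The part of tied arrays in these reversals was not tested.

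Probe sets without a gene symbol also carried a signal that no comparison above used. Of 7490 such probe sets above the filter, 370 were called at 48 h, 155 higher and 215 lower, and without the 6 arrays of tied values 7 and 3 were called.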

How the results depend on the processing

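With all arrays 331 genes were called higher and 468 lower, 772 of them with separate groups. The counts were 87, 341 and 422 on deposited values, 182 and 355 after median centring, 54, 49 and 102 with array weights (whose iteration did not reach its tolerance), 1, 0 and 1 on the 5 arrays alone, 221, 238 and 456 with the term for tied arrays, and 41, 6 and 47 without those arrays. Leaving out 1 array of 48 h gave 11 to 811 higher, 1 to 1331 lower and 12 to 2142 separate. Without CCL set 1 they were 11 and 1, without CCL set 2 811 and 1331, and without untreated set 1, 2 or 3 198 and 281, 152 and 191, and 218 and 194. Where 1 CCL array remained, it was assumed to vary like other groups. Calls were 283 and 331 with no filter on low values, 276 and 397 with a filter at log2 6, 324 and 494 with a trended, robust spread, and 328 and 457 with the mean of probe sets. The cause of these changes was not tested, except that fewer arrays were fitted.

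Same-numbered arrays of a time had residuals correlated above 0.1 in 9 of 12 pairs (-0.08 to 0.46), and the own number correlated best in 7 of 12, so pairing was not taken as established. A fixed replicate block called 492 higher and 670 lower, SPP1 and SLC51B among the genes gained, and a random replicate block 433 and 646. For the difference between 48 h and earlier times, which called 0 genes, the fixed replicate block called 3 positive and 3 negative and the random one 4 and 3. The trended spread, the filter at log2 6 and the mean of probe sets called 1 positive, the fit without tied arrays called 1 negative, and leaving out 1 array gave 0 to 302 positive and 0 to 695 negative.

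Of the named genes 104 were called, and none of these turned its sign under any alternative. Calls of 103 were lost on the 5 arrays alone, of 93 without CCL set 1, of 2 without CCL set 2, of 34, 39 and 27 without untreated set 1, 2 and 3, of 85 without the tied arrays, of 67 with array weights, of 38 on deposited values and of 31 with the term. Signs turned 42 times in 16 genes not called. Median centring gave 0.072 for ALB, 0.12 for GPC3 and 0.038 for RPS19. Array weights gave 0.040 for GPC3, 0.0083 for HSPA1B and -0.0093 for RPS15. The fixed replicate block gave 0.0044 for GPC3 and -0.048 for HK2, and deposited values gave -0.085 for HK2, -0.020 for HSPA1A and -0.082 for TAGLN. The term gave 0.024 for GPC3, 0.00028 for GPI, -0.14 for HSPA1A, -0.036 for RPS15 and 0.0086 for RPS19. Without the tied arrays CCL20 had -0.037, GPI 0.21, HSPA1A -0.19, ICAM1 -0.067, IFI35 0.067, MIR520E -0.33, RPS15 -0.24, TAGLN -0.98 and TYW1 -0.17. Leaving out 1 array gave -0.037 to 1.72 for CCL20, -0.0086 to 0.24 for COX4I1, -0.060 to 0.034 for GPC3, -0.31 to 0.21 for GPI, -0.035 to 0.31 for HK2, -0.19 to 0.23 for HSPA1A, -0.067 to 1.09 for ICAM1, -0.35 to 0.067 for IFI35, -0.33 to 4.20 for MIR520E, -0.24 to 0.32 for RPS15, -0.27 to 0.23 for RPS19, -0.0071 to 0.54 for SPP1, -0.98 to 1.30 for TAGLN and -0.17 to 3.22 for TYW1.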
